A study of Homo sapiens with 4 samples.

Results

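PIP4K2B and PI4K2B encode a pair of phosphatidylinositol kinases whose mRNAs carried m7G peaks in HepG2 cells. Their peaks were taken by gene name from the lists of 2 samples and account for 5 of the listed peaks, 3 of 3355 in replicate 1 and 2 of 4747 in replicate 2, and for 2 of all 3769 genes that either list names. Both genes were selected on the fold enrichment of their peaks, which was high in both lists, so their folds are given as a description. HepG2 is an established human liver cancer line, grown here without any treatment. The groups were poly(A) RNA immunoprecipitated with an anti-m7G antibody, which binds N7-methylguanosine (m7G IP, 2 samples), and the poly(A) input (2 samples), and only the authors' peak list of each m7G IP sample was analysed. In such a list a peak is a stretch of mRNA called as enriched, and its fold enrichment and p-value are the authors' own values. The labels do not say whether the replicates came from separate cultures, and read depth is unknown, so the folds carry no counting interval.

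Phosphoinositides are phosphorylated forms of the membrane lipid phosphatidylinositol, and each form marks particular membranes and recruits its own set of proteins. PI4K2B is a type II phosphatidylinositol 4-kinase, which adds phosphate to phosphatidylinositol itself and gives phosphatidylinositol 4-phosphate. PIP4K2B is a type II phosphatidylinositol 5-phosphate 4-kinase, which uses a rarer lipid, phosphatidylinositol 5-phosphate, to make phosphatidylinositol 4,5-bisphosphate. Despite their similar names they belong to different kinase families. N7-methylguanosine is best known as the cap of mRNA, and it also occurs inside tRNA, rRNA and mRNA.

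The lists differed in size more than in fold. The median fold was 3.71 in replicate 1 and 3.87 in replicate 2, peaks had a median length of 151 nt in each, and the weakest peak of each list had a -log10 FDR of 1.32. Of 16 hepatocyte genes, 7 had a peak and 9, ALB among them, had none in either list. All 7 with a peak (100%) were in both lists, where the share over all genes with a peak was 51.7%. A peak list does not report expression. A peak counted as shared when a peak of the same gene and strand in the other list covered 50% or more of the shorter one. Matched one to one, 2128 pairs resulted, or 63.4% of replicate 1 peaks and 44.8% of replicate 2 peaks, and 45.3% of the 3769 genes had such a pair.

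PIP4K2B had its strong peak at the very start of the gene. On chromosome 17 (GRCh38, minus strand) the peak ran from 38799398 to 38799845 in replicate 1, a single block of 448 nt, with a fold of 17.3 and a -log10 p of 11.5. In replicate 2 it ran from 38799457 to 38799815, a single block of 359 nt, with a fold of 42.2 and a -log10 p of 15.8. The replicate 2 peak lay wholly inside the replicate 1 peak, which reached 30 nt further at the 5' side and 59 nt further at the 3' side, so that the 359 shared bases made up 80.1% of the longer peak.

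More of this peak lay before the annotated gene than in it. In the RefSeq gene table of GRCh38.p14 PIP4K2B spans 38765691 to 38799556, and 289 of the 448 nt in replicate 1 (64.5%) and 259 of the 359 nt in replicate 2 (72.1%) lay upstream of that start. Its midpoint was 65 nt before the start in replicate 1 and 80 nt before it in replicate 2. The gene models on which the authors called peaks are not known here, so a transcript that begins further upstream and a start misplaced in either annotation cannot be told apart from these lists. CWC25, which encodes a splicing factor, is the next gene upstream on the same strand. The near edge of its span, which is its 3' end, lies across a gap of 595 nt from the replicate 1 peak. CWC25 had 0 peaks in either list.

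The 250 bases before the annotated start, chr17:38799557-38799806 on the minus strand, lay entirely within both PIP4K2B peaks. They are shown because they are most of the peak sequence that the gene table leaves out. The peak had 289 nt before the start in replicate 1 and 259 nt in replicate 2, so its outermost bases are not shown. The sequence is that of RefSeq (GRCh38.p14), and the capitals mark the GC box, GGGCGG, on either strand.
PIP4K2B upstream part of the peak: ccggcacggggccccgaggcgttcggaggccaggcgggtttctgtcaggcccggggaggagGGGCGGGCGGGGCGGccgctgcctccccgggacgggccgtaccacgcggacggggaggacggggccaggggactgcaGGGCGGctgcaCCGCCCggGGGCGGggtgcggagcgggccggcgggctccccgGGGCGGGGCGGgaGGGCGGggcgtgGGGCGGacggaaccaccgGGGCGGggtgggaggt
G made up 54.4% of these bases and G and C together 83.6%. The promoter table gives a single start for PIP4K2B. Against the 35116 windows that it holds for 27305 genes, whose medians were 28% G and 58% G and C, this share of G stood at percentile 99.6. Among the 2195 windows of the 1564 genes with a peak in both lists that the table holds, whose median was 34% G, it stood at percentile 99.2. The stretch held GGGCGG 10 times and its reverse complement CCGCCC once, overlapping copies counted, a sum of 11. At least 1 copy on either strand was present in 42.6% of all these windows and in 73.9% of those of genes with a peak in both lists, while 11 or more were found in 0.0769% and 0.137% of them. A match of letters is no evidence of a bound factor or of a methylated base.

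The PIP4K2B peak was then set beside all others that crossed the start of their gene. Of the peaks with a matched gene, 9.25% in replicate 1 (310 of 3352) and 6.82% in replicate 2 (323 of 4739) had bases on both sides of the start, and the median length before it was 23 nt in replicate 1 and 24 nt in replicate 2. Only 4 peaks of replicate 1, PIP4K2B included, reached as far upstream as its 289 nt, and 8 of replicate 2 reached its 259 nt. A stretch of at least 200 nt before the start was found in both lists for 7 genes, which were PIP4K2B, AP3S1, ERO1A, PXDC1, RBCK1, UBE2M and YY1. These genes were singled out after their values were seen. Among them PIP4K2B had the highest fold in both lists, followed by AP3S1, an adaptor subunit of vesicle transport, with folds of 16.2 and 25.3 in replicates 1 and 2. The other 5 had folds between 2.3 and 11.2.

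**Figure D1:**
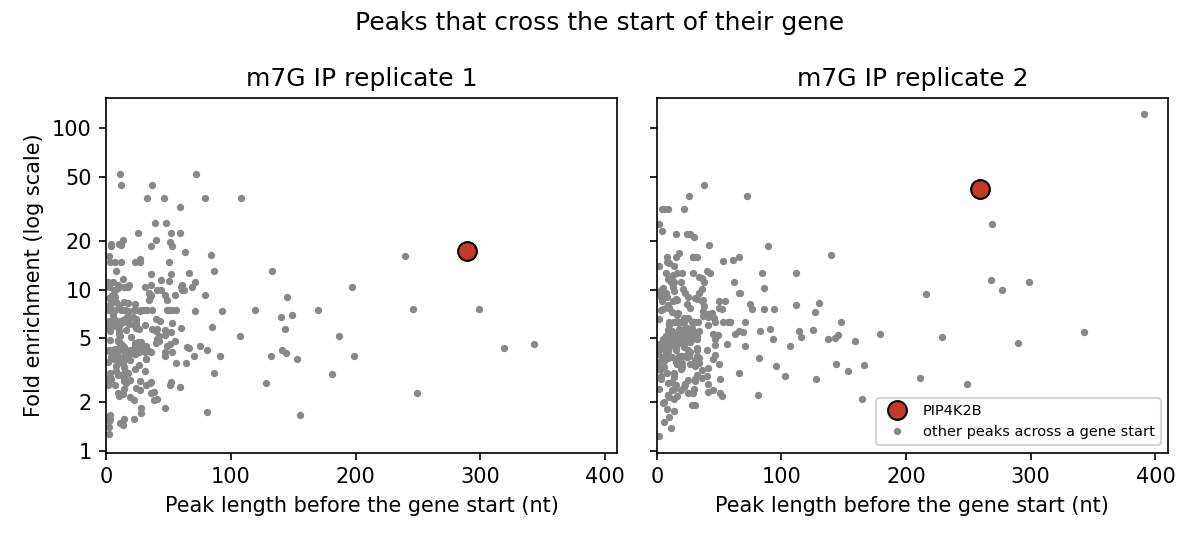
Fold enrichment (log scale) against the length of the peak that lies before the RefSeq gene start (nt), for peaks that cross the start, in each m7G IP replicate; red is PIP4K2B and grey all other such peaks. The median peak of this kind reaches 23 nt upstream in replicate 1 and 24 nt in replicate 2, whereas PIP4K2B reaches 289 nt in replicate 1 and 259 nt in replicate 2 with folds of 17.3 and 42.2.

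PI4K2B had a single peak, at the same bases in both lists. On chromosome 4 (GRCh38, plus strand) it ran from 25234210 to 25234388, a single block of 179 nt, with a fold of 14.8 and a -log10 p of 5.66 in replicate 1, and a fold of 25.3 and a -log10 p of 8.28 in replicate 2. Identical boundaries were found for 10.3% of shared peaks (220 of 2128). Unlike the PIP4K2B peak, this one lay inside the annotated gene, which spans 25234033 to 25279204. Its first base was 177 nt downstream of the gene start, and its midpoint was 266 nt downstream, or 0.589% of the 45172 nt span. The upstream neighbour, a lncRNA gene on the opposite strand (LOC105374535), starts across a gap of 167 nt from the start of PI4K2B, running the other way, and had 0 peaks in either list. The promoter table ends 127 nt short of the PI4K2B peak, and no sequence of the peak is shown. In the 250 bases before the start, which lie outside the peak, PI4K2B had 33.6% G, close to the median of 34% among genes with a peak in both lists, and 3 GC boxes over both strands.

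**Figure D2:**
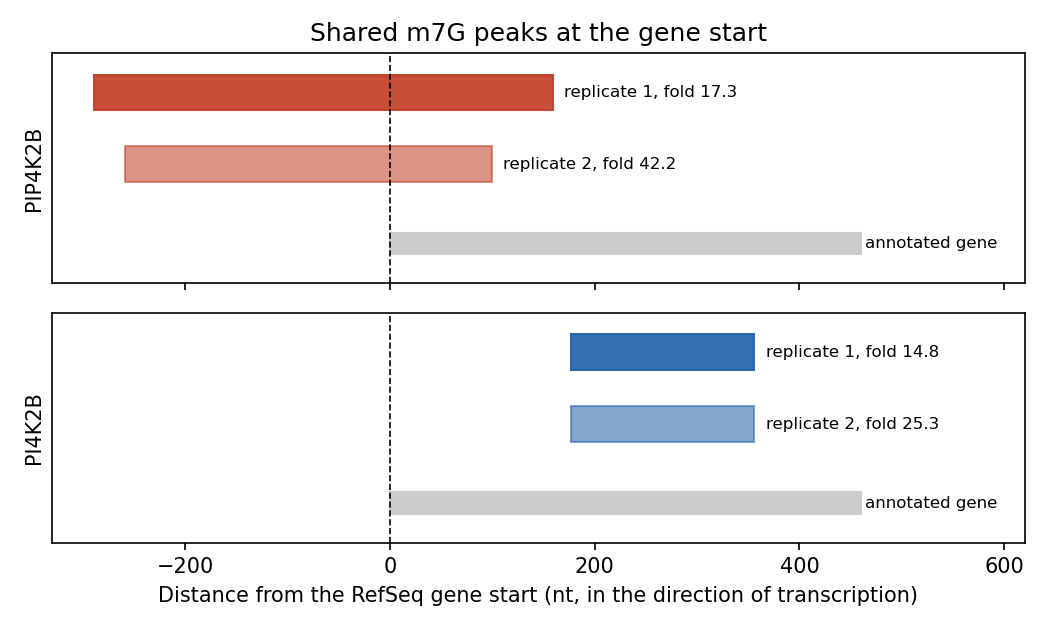
Position of the shared PIP4K2B peak (upper panel, red) and PI4K2B peak (lower panel, blue) in the m7G IP replicates, as distance from the RefSeq gene start in nt in the direction of transcription; the grey bar is the first part of the annotated gene, which goes on to the right. The PIP4K2B peak begins 289 and 259 nt before the start in replicates 1 and 2, and the PI4K2B peak begins 177 nt after it in both.

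PIP4K2B had a second peak in replicate 1 only. It ran from 38769691 to 38770504 on chromosome 17 and joined 2 blocks, 38769691 to 38769771 (81 nt) and 38770436 to 38770504 (69 nt), across a gap of 664 nt, for a length of 150 nt. Its fold of 3.4 was below the list's median of 3.71, and its -log10 p was 4.18. The midpoint lay 4074 nt from the 3' end of the gene, at 88% of its span, in genomic distance. Thus 2 of the 3 replicate 1 peaks of these genes, and both replicate 2 peaks, were paired. Over all peaks 63.4% were paired in replicate 1 and 44.8% in replicate 2. Since both genes were chosen for high folds in both lists, their pairing is only a description. No peak of replicate 2 was listed in that region of PIP4K2B. An absent listing is not a measured value of 0, since peaks below the authors' threshold are not listed. PI4K2B had no peak outside its start region in either list.

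Within each list the shared peaks of both genes ranked near the top by fold and lower by p. By fold the PIP4K2B peak was number 75 of 3355 in replicate 1 (percentile 97.6) and number 20 of 4747 in replicate 2 (percentile 99.6). The PI4K2B peak was number 102 in replicate 1 (percentile 96.6) and number 61 in replicate 2 (percentile 98.7). By -log10 p the PIP4K2B peak was at percentile 80.7 in replicate 1 and 90 in replicate 2, and the PI4K2B peak at 51.7 in replicate 1 and 76.4 in replicate 2. PIP4K2B was also long, at percentile 95.4 of length in replicate 1 and 91.5 in replicate 2, while PI4K2B was near the middle, at 55.4 and 55.3. The neighbours of PIP4K2B in the order of folds were LRP1 (17.5) above and PLXND1 (17) below in replicate 1, and EIF4ENIF1 (44.3) above and CDK13 (38) below in replicate 2. For PI4K2B they were ZNF787 (15.3) above and SIX5 (13.8) below in replicate 1, and ERF (28) above and PATZ1 (23.7) below in replicate 2.

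The strength of the peaks differed between replicates. The PIP4K2B fold averaged 29.8 ± 17.6 (SD, n = 2) and was 2.44 times as high in replicate 2 as in replicate 1. The PI4K2B fold averaged 20.1 ± 7.42 (SD, n = 2) and was 1.71 times as high in replicate 2. The median of this ratio over all 2128 shared peaks was 1.03, with an interquartile range of 0.838 to 1.31, and 3.38% of shared peaks had a ratio at or above that of PIP4K2B and 11.5% at or above that of PI4K2B. A higher fold in replicate 2 was the case for 54.9% of shared peaks. The folds of the 2 genes overlapped, since 25.3 for PI4K2B in replicate 2 was above 17.3 for PIP4K2B in replicate 1, while within each replicate PIP4K2B was the higher. With 1 value per list neither order was tested.

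**Figure D3:**
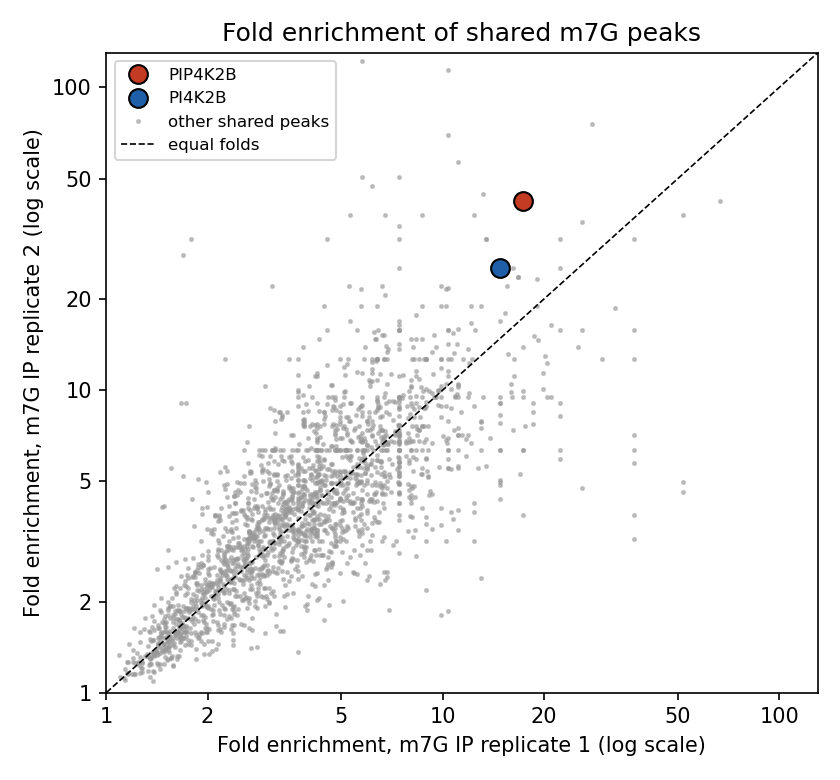
Fold enrichment in m7G IP replicate 2 against replicate 1 (both log scales) for the 2128 shared peaks; red is PIP4K2B, blue PI4K2B, grey all other shared peaks, and the dashed line marks equal folds. PIP4K2B (17.3 in replicate 1, 42.2 in replicate 2) and PI4K2B (14.8 and 25.3) lie in the upper right above the line, and the grey points form lines at recurring folds.

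Folds recur in these lists, and those of PI4K2B are among the recurring ones. The commonest fold was 7.42 in replicate 1 (107 peaks) and 6.33 in replicate 2 (196 peaks). Within rounding, the PI4K2B folds were 2 times 7.42 and 4 times 6.33, and 14.8 was listed for 26 peaks of replicate 1 and 25.3 for 5 of replicate 2. The PIP4K2B fold of 17.3 was 7/3 of 7.42 and was listed for 11 peaks, and 42.2 was 20/3 of 6.33 and was listed for 2 peaks. Ratios of whole numbers up to 20 to the commonest fold covered 55.7% of all peaks in replicate 1 and 61.8% in replicate 2. With whole numbers up to 10 such ratios covered 31.4% in replicate 1 and 35.2% in replicate 2, and 42.2 was not among them. Whole multiples up to 10 of the commonest fold made up 5.16% of all peaks in replicate 1 and 6.93% in replicate 2, and 26.6% and 34.9% of those with a fold above 10. The part that coarse fold values play in the ranks was not tested.

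By the pair of log2 folds over the 2 lists, the genes nearest to PIP4K2B among 1708 genes with a shared peak included FOSL2, an AP-1 transcription factor (13.2 in replicate 1 and 44.3 in replicate 2, distance 0.396) and ROGDI (22.3 and 31.6, distance 0.555). Nearest to PI4K2B were AP3S1 (16.2 and 25.3, distance 0.13), the zinc finger gene PATZ1 and SSBP3, a single-stranded DNA-binding protein (both 16.7 and 23.7, distance 0.198). The peaks of FOSL2, ROGDI and AP3S1 had midpoints within 200 nt of the gene start in both lists. Such a place was common at high folds. Of the 109 shared peaks in the top 10% by fold of both lists, 49 had a replicate 1 midpoint before the start or up to 200 nt after it. The midpoint of the PATZ1 peak lay 604 nt downstream in replicate 1 and 589 nt in replicate 2, and that of SSBP3 at 7454 nt and 7439 nt.

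PIP4K2B and PI4K2B were chosen for their high folds, so the lower folds of most other genes of the pathway are given as a description. A list of 89 phosphoinositide genes held 35 with a peak, of which 20 (57.1%) were in both lists, where the share over all genes with a peak was 51.7%, 3 in replicate 1 only and 12 in replicate 2 only. Without PIP4K2B and PI4K2B the median fold of the list's peaks was 4.28 in replicate 1 (29 peaks, against 3.71 for all peaks of the list) and 4.56 in replicate 2 (46 peaks, against 3.87). Of the 24 kinases and kinase subunits, 11 had a peak and 6 of these (54.5%) were in both lists. PIP4K2B and PI4K2B are counted in the 57.1% and in the 54.5%. Their place in both lists followed from the choice by fold, so neither share is independent of that choice.

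The closest relatives of both genes had peaks in 1 list at most. PIP4K2A, the paralogue of PIP4K2B, had a peak in replicate 2 only, with a fold of 19 and a midpoint 184 nt from the gene start. The third member of that family, PIP4K2C, had none. PI4K2A, the paralogue of PI4K2B, had a peak in replicate 1 only, with a fold of 2.67 and a midpoint 164 nt from the start. The type III phosphatidylinositol 4-kinases PI4KA and PI4KB make the same product as PI4K2B. PI4KA had a peak near its start in both lists with folds of 7.42 in replicate 1 and 4.22 in replicate 2, and PI4KB had a peak in replicate 2 only (fold 4.22, 11476 nt from the start).

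Other kinases that act on phosphoinositides were listed with lower folds at shared peaks. PIP5K1C, which makes phosphatidylinositol 4,5-bisphosphate from phosphatidylinositol 4-phosphate, had folds of 8.66 in replicate 1 and 5.27 in replicate 2 at its start. PIK3R2, a regulatory subunit of class I phosphoinositide 3-kinase, had 5 peaks in replicate 1 and 3 in replicate 2, with 3 shared, whose folds lay between 1.71 and 2.77. PIKFYVE, which makes phosphatidylinositol 3,5-bisphosphate, had 1 peak in each list at different places, a 2-block peak near the start in replicate 2 (fold 14.8) and a peak 90512 nt downstream in replicate 1 (fold 4.05). PIK3CD had a peak in replicate 1 only (3.42) and PIP5K1A in replicate 2 only (3.75).

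Among the 31 phosphatases, 11 had a peak and 6 of these (54.5%) were in both lists, near the 51.7% over all genes with a peak. PIP4P1, which removes the 4-phosphate of phosphatidylinositol 4,5-bisphosphate and so yields the substrate of PIP4K2B, had a start peak with folds of 8.9 in replicate 1 and 12.7 in replicate 2. MTMR2, a 3-phosphatase of the myotubularin family, had the highest fold of the whole pathway list in replicate 1, 51.9, and a fold of 4.6 at the paired peak in replicate 2. INPPL1, the 5-phosphatase SHIP2, shared a peak with folds of 6.49 and 4.92, and in replicate 1 it had another of 17.3 that was not paired.

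Of 16 genes of synthesis, transfer and scaffolds, 7 had a peak and 3 of these (42.9%) were in both lists, where the share over all genes with a peak was again 51.7%. CDIPT, the synthase of phosphatidylinositol, had folds of 4.66 in replicate 1 and 6.52 in replicate 2 near its start. The transfer protein PITPNA had 5.27 and 22.1, and PITPNM1 had 14.8 and 8.3 at its stronger shared peak. Of 18 phospholipase C and inositol phosphate genes, 6 had a peak and 5 (83.3%, against the same 51.7%) were in both lists, among them PLCB1 (7.21 and 9.14) and PLCG1 (7.42 and 6.7), each with identical boundaries in the 2 lists, and the inositol trisphosphate kinase ITPKC (10.2 and 8.86). At the 21 shared peaks of the pathway other than those of PIP4K2B and PI4K2B, the fold was higher in replicate 2 for 9. Over all 2128 shared peaks it was higher in replicate 2 for 54.9%, and the difference was not tested.

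**Figure D4:**
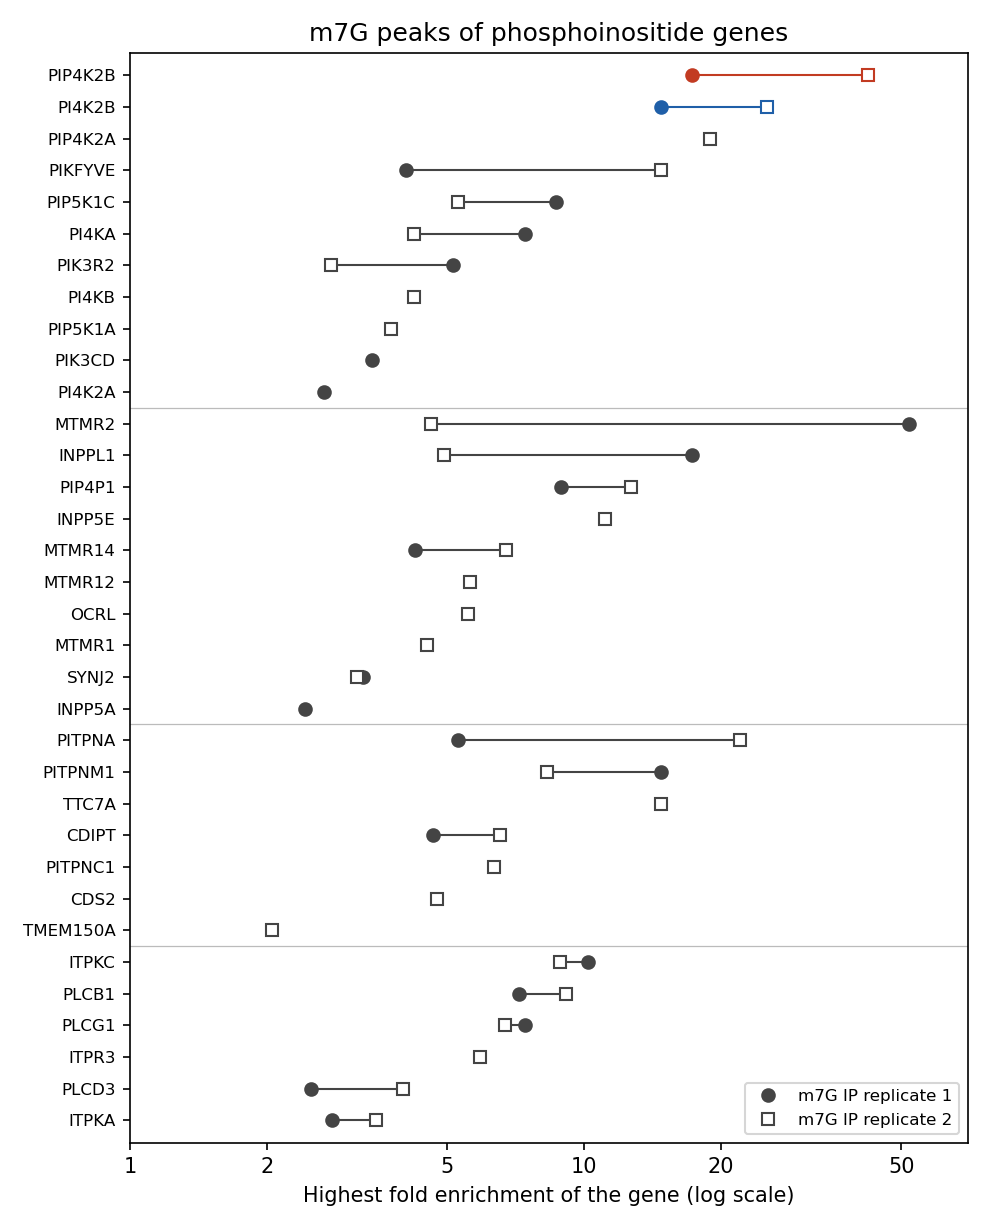
Highest fold enrichment (log scale) of phosphoinositide genes with a peak, in m7G IP replicate 1 (filled circles) and replicate 2 (open squares), joined where both lists have a peak; the blocks from the top are kinases, phosphatases, synthesis and transfer genes, and phospholipase C and inositol phosphate genes. PIP4K2B (red, 17.3 and 42.2) and PI4K2B (blue, 14.8 and 25.3) are above 10 in both lists, and joined symbols of PIKFYVE, INPPL1 and PIK3R2 stand for different peaks.

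Position near the gene start, which the choice by fold did not use directly, was common in the pathway and in the lists as a whole. A midpoint before the start or up to 500 nt after it was found for 6 of 13 kinase peaks in each replicate, PIP4K2B and PI4K2B included, compared with 39.4% of all matched peaks in replicate 1 and 33.8% in replicate 2. Without these 2 genes such a midpoint was found for 4 of 10 kinase peaks in replicate 1 and 4 of 11 in replicate 2. Among the phosphoinositide genes it was found for 18 of 32 peaks in replicate 1 and 22 of 48 in replicate 2. Leaving out the same 2 genes, it was found for 16 of 29 in replicate 1 and 20 of 46 in replicate 2. All peaks in that zone had a median fold of 4.64 in replicate 1 and 4.87 in replicate 2. Peaks further downstream had a median fold of 3.3 in replicate 1 and 3.48 in replicate 2. Position near the start was therefore not independent of the choice by fold. Of the kinase peaks, the PIP4K2B peak alone crossed a gene start in each list. Of all phosphoinositide peaks, PIP4K2B included, 4 of 32 in replicate 1 and 6 of 48 in replicate 2 did so. The share over all matched peaks was 9.25% in replicate 1 and 6.82% in replicate 2. The crossing peaks of the other phosphoinositide genes had at most 29 nt before the start.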

How the data were processed

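Poly(A) RNA from HepG2 cells was sequenced after m7G immunoprecipitation and as input, per the labels' protocols, from stranded Illumina libraries. Per the submitters' processing notes, STAR and the build GRCh38 are listed with no version or role stated, and the peak caller is not given in the sources used here. Each deposited list gives 1 IP sample's peaks, per the labels, and input values were not analysed here. The deposited p-value, the log10 p and log10 FDR scores and the fold enrichment, a ratio whose libraries and scaling are not stated, are the authors' values for each peak. They were used only to describe and rank peaks within a list, and no test across replicates was run.

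BED starts were turned into 1-based positions. Gene names were matched to the RefSeq table of GRCh38.p14 by symbol, or by a former symbol whose gene overlaps the peak (139 peaks in replicate 1 and 199 in replicate 2), and 3 and 8 peaks were unmatched. Distances are genomic, from the gene span, and transcripts and exons were not used. Pairs of peaks were one to one, best overlap first. The overlap step was tested on simulated data, where 200 of 200 planted pairs were recovered. The genes, the pathway lists and the rule for named genes were chosen with earlier results of these data known. Named were both genes, the phosphoinositide genes and, for each gene, the 3 genes with the smallest Euclidean distance in log2 fold over the 2 lists and its neighbours by fold; a few results that this rule covers are not reported here. Python 3.11.15, numpy 2.4.6, pandas 2.3.3 and matplotlib 3.10.9 were used.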

Additional observations from a re-analysis of the deposited data

How the results depend on the processing

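Both genes kept their shared peak (2 of 2) with an overlap of 1 base, with 80% reciprocal overlap and with only peaks of a -log10 FDR of at least 2. The PIP4K2B pair passes the 80% limit narrowly, at 80.1% of the longer peak. Percentiles by fold moved by less than the spread between replicates under these stricter peaks, among single-block peaks and among shared peaks, between 97.5 and 97.9 for PIP4K2B in replicate 1, 99.5 and 99.6 in replicate 2, and between 96.5 and 96.8 for PI4K2B in replicate 1 and 98.5 and 98.7 in replicate 2. Without one replicate the mean fold ranged from 17.3 to 42.2 for PIP4K2B and from 14.8 to 25.3 for PI4K2B. Phosphoinositide genes with a peak in both lists numbered 20 by name, 19 with a shared peak, 18 with the stricter peaks and 6 for kinases alone, which is fewer genes by construction. Taking the first base in place of the midpoint moved the peak of PIP4K2B to -289 nt in replicate 1 and -259 nt in replicate 2, and that of PI4K2B to 177 nt in both, by construction, and the sides of the gene start on which they lie did not change. No paired analysis was possible because the input samples gave no values to pair with the IP lists. Unknown depth limits which peaks could be called.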
